A study of Mus musculus with 207 samples.

Results

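Gene expression in the jejunum, the middle stretch of the small intestine, was compared between mice fed the whey-based diet at its highest fat level and mice fed it at its lowest. The members are the jejunum libraries whose labels read WPI-30_FAT-55 (12 libraries) and WPI-30_FAT-20 (12 libraries). They are 24 of the 207 libraries of the series and 24 of its 70 jejunum libraries, and each is total RNA of a different C57BL/6 mouse. WPI is read here as whey protein isolate and CAS, the protein of the sister diets, as casein. The labels give only these abbreviations, a protein level of 30 in every diet and a fat level of 55, 40 or 20, without a unit. Both groups therefore share the protein, its level and the strain, and differ in the fat label. The labels do not give the other components of the diets. Any that changed along with the fat level cannot be told apart from fat in this comparison. Sex, age, time on diet, feeding state at collection and the composition of the fat are not given in the labels used here. Animal identifiers share a stem in sets of 3 mice, 4 stems to a group, whose meaning the labels do not give. The p-values below treat the mice as independent and measure the spread between them. No stem occurs in both groups, and these p-values make no separate allowance for variation common to a stem. The correlation within a stem was 0.114 over the jejunum libraries, and fits that use the stem are given at the end. The libraries held 22.563 to 23.276 M reads on genes for FAT-55 and 20.984 to 23.808 M reads for FAT-20. The WPI diet at the middle fat level, FAT-40 (12 libraries), and the CAS diets at FAT-55 and FAT-20 (22 libraries) are set beside this comparison at the end.

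Cells on the jejunal villi take up fatty acids and cholesterol at their brush border, aided by membrane proteins such as CD36 and NPC1L1. They join the fatty acids to glycerol again inside the endoplasmic reticulum and export the triglyceride on apolipoprotein B in chylomicrons, with a part held for a time in lipid droplets or burned in mitochondria and peroxisomes. The same cells split and absorb sugars, and they make some of their own fatty acids and cholesterol under the SREBP transcription factors, of which SREBP-2 acts when sterols in the cell are scarce. Between the villi, Paneth cells of the crypts release defensins and lysozyme, and the epithelium adds lectins of the Reg3 family that act on bacteria.

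In FAT-55 jejuna transcripts for taking up, exporting and breaking down fat were higher than in FAT-20 jejuna. Cd36 was 2.17-fold, Apoa4 2.39-fold and Lipa 2.3-fold higher in FAT-55, with n = 12 mice in each group. Transcripts for sugar digestion, cholesterol synthesis and antibacterial defence were lower, Mgam 1.86-fold, Mvk 1.6-fold and Reg3b 11.6-fold, and so was Fasn, 2.16-fold. Genes of smooth muscle and fat cells were also lower in FAT-55. With their scores as covariates Cd36, Apoa4, Lipa, Mgam and Reg3b stayed called while Mvk and Fasn did not. Over all genes, 312 of the 5231 calls were kept in the same direction in that fit. Fat uptake, chylomicron and fatty acid oxidation genes had 8, 9 and 22 members higher without the scores and 2, 1 and 1 with them. Sugar genes had 7 members lower without the scores and 6 with them, and cholesterol genes 17 and 2. On GRCm38 Apoa4 (ENSMUSG00000032080) lies at chr9:46240696-46243459, Lipa (ENSMUSG00000024781) at chr19:34492318-34527474, Fasn (ENSMUSG00000025153) at chr11:120805846-120824547 and Reg3b (ENSMUSG00000071356) at chr6:78370657-78373466.

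In all, 2416 of 16992 genes tested were higher in FAT-55 than in FAT-20 jejuna (14.2%) and 2815 were lower (16.6%), at a Benjamini-Hochberg adjusted p under 0.05 in edgeR's quasi-likelihood test. That is 30.8% of the genes, and the counts of each list below are read against these shares. The median log2 fold change over all genes was -0.031. Scaled to a list of epithelial genes in place of all genes, the median was -0.155 and the calls were 973 higher (5.73%) and 5004 lower (29.4%). The share of calls that were higher was then 16.3%, against 46.2% with the usual scaling. Of the 16 genes of that epithelial list, 3 were themselves called higher and 2 lower with the usual scaling (median 0.06). Their own changes enter the epithelial scaling. No library of one group overlapped the range of the other for 57 genes that were higher (0.335%) and 43 that were lower (0.253%) in FAT-55. On the first principal component of the 500 most variable genes, which held 38.3% of their variance, FAT-55 libraries lay between 9.7 and 25.68 and FAT-20 libraries between -36.53 and 4.92.

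Genes of neighbouring tissue moved with the diet. All 15 smooth muscle genes fell in FAT-55 with a median log2 fold change of -1.14, and their summed level was 781, 1180 and 2280 CPM (TMM-scaled counts per M reads on genes) in the lowest, median and highest FAT-55 library, against 1550, 2460 and 6490 CPM in FAT-20. Of 13 fat cell genes, 9 fell and 2 rose (median -2.96), and their summed level was 357, 415 and 503 CPM in FAT-55 against 339, 455 and 1330 CPM in FAT-20. No gene of either list was at 0 in every library of a group. Adipoq, which encodes the fat cell hormone adiponectin, had no read in 7 of the 12 FAT-55 libraries and reached at most 4.09 CPM there (replicate 12), while every FAT-20 library held 2.16 to 73.4 CPM. Its log2 fold change was -4.97 ± 0.9, adjusted p = 2.3e-05, or -6.25 without FAT-55 replicate 12 and -4.26 without FAT-20 replicates 1 and 9. Fabp4, the fatty acid binding protein of fat cells, had -1.9 ± 0.25, adjusted p = 1.0e-07 on the log2 scale and -0.1, adjusted p = 0.87 in the fit with both scores described next. Fabp4 is itself part of the fat cell score, so its value in that fit is partly set by the score and tells nothing further. Enteric neuron and glia genes followed, with 11 of 14 lower and none higher (median -0.74). Fibroblast and matrix genes had 1 member higher and 3 lower of 14, against none higher and 2 lower without FAT-20 replicates 1 and 9 and none higher without replicate 2 of either group. None of 12 endothelial genes was called, and 1 was lower without FAT-20 replicate 10. Fewer cells of a type and less RNA per cell cannot be told apart in whole tissue.

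A score for each tissue is the mean log2 CPM of its genes in a library. It gives genes of few reads the same weight as abundant ones. The groups lay further apart on the fat cell score than in the summed level of its genes, whose medians were 415 CPM in FAT-55 and 455 CPM in FAT-20. The fat cell score ran from 0.13 to 3.24 in FAT-55 (median 0.54) and from 2.38 to 5.84 in FAT-20 (median 3.68), and the smooth muscle score from 4.79 to 6.53 in FAT-55 (median 5.46) and from 5.88 to 7.97 in FAT-20 (median 6.61). FAT-55 replicates 12 and 10 had the highest fat cell scores of their group, at 3.24 and 2.45. FAT-20 replicates 1 and 9 stood apart in Fabp6, a gene typical of the ileum, with 177 and 282 CPM. Values without them stand beside the named genes whose call ended and beside the lists whose counts moved most. Plb1, a phospholipase gene also highest in both (1220 and 1240 CPM), ran from 0.764 CPM (replicate 7) to 163 CPM (replicate 6) in the other FAT-20 libraries. In replicates 3, 7, 10 and 12 Plb1 was 0.806, 0.764, 2.53 and 1.7 CPM. Apoa4 stood there at 3690, 2660, 3060 and 1410 CPM, and at 428 to 1510 CPM in the rest of FAT-20. Leaving out replicates 1 and 9 does not remove this spread, whose source was not tested. With both scores as covariates, 198 genes were called higher (1.17%) and 129 lower (0.759%). Of the genes called without them, 312 kept their call and direction, 394 changed sign and 3 were called in the other direction. The standard error of the called genes grew by a median of 1.35-fold in that fit. Results below carry their value in this score-adjusted fit, and a change given without one was not called in it unless the text says so. The part of the neighbouring tissue in the other results was not tested.

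**Figure D1:**
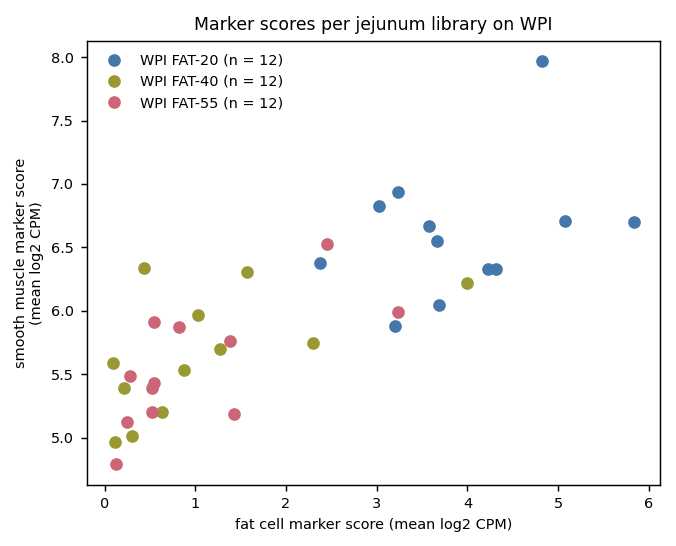
Fat cell score (x axis) against smooth muscle score (y axis), each the mean log2 CPM over its gene list, for the libraries of the WPI diets, with 1 point per mouse. FAT-55 libraries lie between 0.13 and 3.24 on the fat cell score, most of them at the lower left with most FAT-40 libraries, and FAT-20 libraries lie between 2.38 and 5.84.

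**Figure D2:**
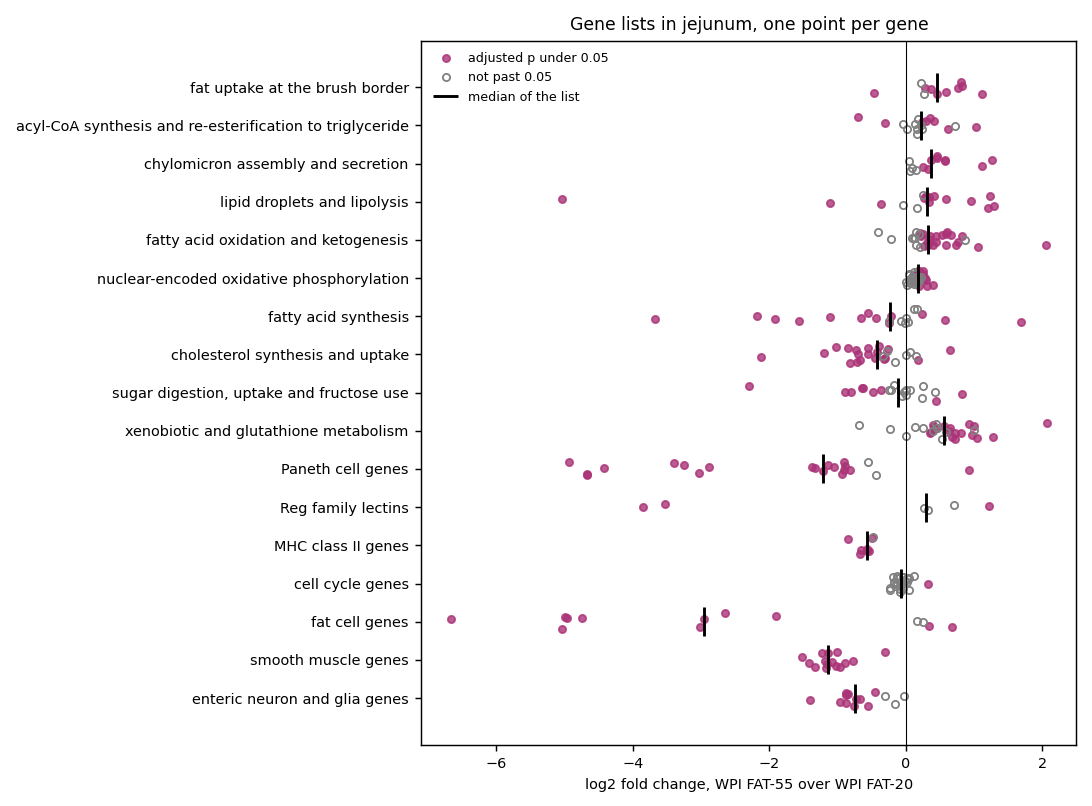
Log2 fold change of FAT-55 over FAT-20 (x axis) for the measured genes of 17 lists, with 1 point per gene, filled where the adjusted p was under 0.05, and a bar at the median of the list. Most points of the smooth muscle, Paneth and class II lists lie left of 0, with medians of -1.14, -1.22 and -0.57, and most of the fat uptake and xenobiotic lists lie right of it.

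Genes of fat uptake rose in FAT-55 jejuna. Of 11 brush border and carrier genes 8 were higher and 1 was lower, with a median log2 fold change of 0.46 (score-adjusted, 2 higher and 0 lower). Cd36, the membrane receptor for long-chain fatty acids, measured 274, 326 and 439 CPM in the lowest, median and highest FAT-55 library, against 94.5, 136 and 273 CPM in FAT-20. Every FAT-55 library thus lay above every FAT-20 library (log2 fold change 1.12 ± 0.16, adjusted p = 5.2e-07; score-adjusted 0.86, adjusted p = 0.0046). Slc27a4, an acyl-CoA synthetase that traps fatty acids in the cell, measured 999, 1226 and 1504 CPM in FAT-55 against 494, 732 and 1065 CPM in FAT-20. The ranges met only at their edges, and the rise was smaller (0.58 ± 0.1, adjusted p = 8.1e-06; score-adjusted 0.48, adjusted p = 0.0468). Fabp1, the liver-type fatty acid binding protein (0.82 ± 0.18, adjusted p = 4.2e-04), Slc27a2, a very-long-chain acyl-CoA synthetase (0.81 ± 0.18, adjusted p = 4.1e-04), and Scarb1, a lipoprotein receptor (0.76 ± 0.3, adjusted p = 0.0464), also rose, and none of the 3 was called in the score-adjusted fit. Scarb1 turned in sign in that fit (-0.26, adjusted p = 0.76) and lost its call without FAT-20 replicates 1 and 9 (0.61, adjusted p = 0.14). Npc1l1, through which cholesterol enters the enterocyte, went the other way. It measured 679.7, 848 and 984 CPM in FAT-55 against 847, 1140 and 1471 CPM in FAT-20, with overlapping ranges (-0.46 ± 0.09, adjusted p = 7.2e-05; score-adjusted -0.34, adjusted p = 0.16).

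The steps from fatty acid to triglyceride changed less evenly. Of 17 genes of acyl-CoA synthesis and re-esterification that passed the filter on low counts, of 18 in the list, 6 rose and 2 fell (median 0.21; score-adjusted 1 higher and 0 lower). Acsl3 (1.03 ± 0.18, adjusted p = 9.5e-06) and Acsl5 (0.29 ± 0.11, adjusted p = 0.032), which activate fatty acids with coenzyme A, rose, as did Lpcat3, which remodels the phospholipids of the chylomicron coat (0.42 ± 0.06, adjusted p = 1.2e-06; score-adjusted 0.39, adjusted p = 0.0065). Lpin1, a phosphatidate phosphatase, fell (-0.69 ± 0.14, adjusted p = 1.2e-04) and its relative Lpin2 rose (0.62 ± 0.13, adjusted p = 1.6e-04). Gpam, the mitochondrial glycerol-phosphate acyltransferase, fell slightly (-0.31 ± 0.07, adjusted p = 3.3e-04).

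Genes of chylomicron assembly rose in 9 of 13 cases and fell in none (median 0.37; score-adjusted 1 higher). Apoa4, an apolipoprotein of the chylomicron surface, measured 2563, 3284 and 5811 CPM in FAT-55 against 428, 1302 and 3687 CPM in FAT-20. All 12 FAT-55 libraries were above the FAT-20 median, although the ranges overlapped (1.26 ± 0.22, adjusted p = 1.5e-05; score-adjusted 0.96, adjusted p = 0.040). Apoc2, the activator of lipoprotein lipase (1.12 ± 0.36, adjusted p = 0.012), Apob, the structural protein of the particle (0.57 ± 0.13, adjusted p = 6.1e-04), Mttp, which loads it with lipid (0.46 ± 0.11, adjusted p = 6.8e-04), and Creb3l3, a transcription factor of apolipoprotein genes (0.58 ± 0.12, adjusted p = 2.2e-04), rose too. Surf4, a cargo receptor of the secretory path, rose by less (0.37 ± 0.07, adjusted p = 1.7e-05). None of these 5 was called in the score-adjusted fit.

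**Figure D3:**
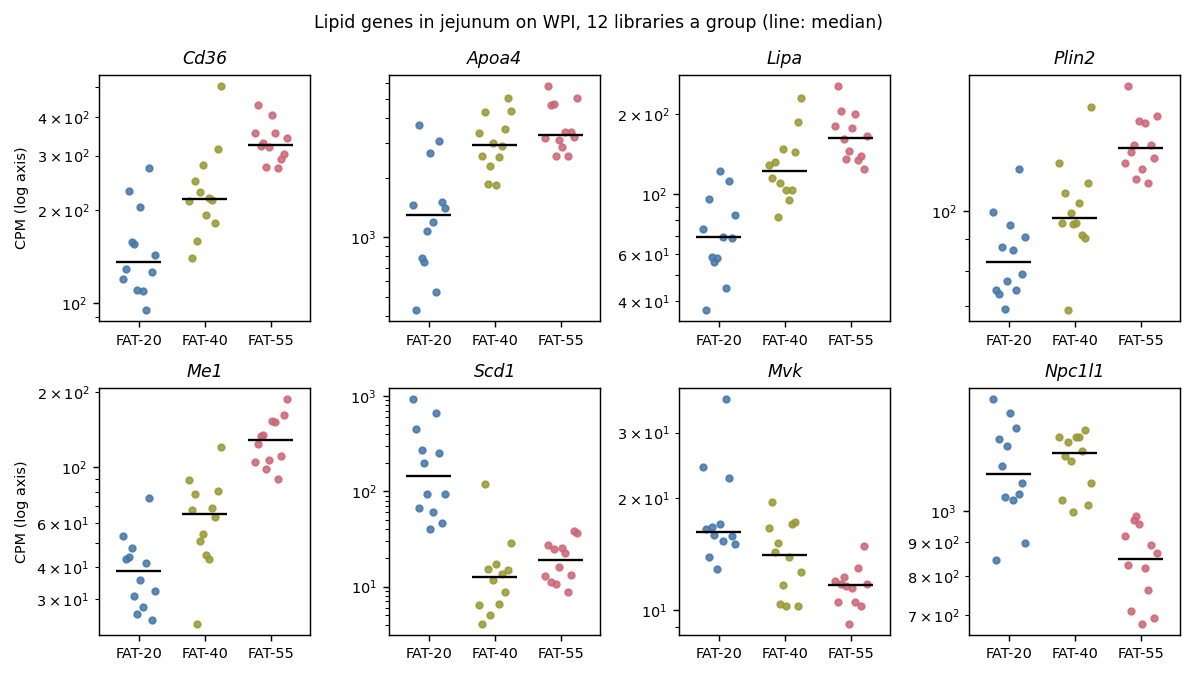
CPM on a log axis for 8 genes of fat and cholesterol handling in each WPI library by fat level, with 1 point per mouse and a bar at the group median. For Cd36 the lowest FAT-55 library (274 CPM) lay above the highest FAT-20 library, and for Scd1 every FAT-55 library lay below every FAT-20 library.

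Among lipid droplet and lipolysis genes more rose than fell. Of 16 measured, 10 rose and 3 fell (median 0.31; score-adjusted 3 higher and none lower). Lipa, the acid lipase that frees fatty acids and cholesterol in lysosomes, measured 125, 163 and 256 CPM in FAT-55 against 36.9, 69.2 and 122 CPM in FAT-20. Those groups did not overlap, a difference of 2.3-fold (1.2 ± 0.15, adjusted p = 1.9e-08; score-adjusted 0.77, adjusted p = 0.0078). Plin2, the coat protein of enterocyte droplets, rose with a smaller step (0.59 ± 0.09, adjusted p = 2.7e-06; score-adjusted 0.45, adjusted p = 0.030), and Plin3, another coat protein, likewise (0.41 ± 0.1, adjusted p = 6.1e-04). G0s2, an inhibitor of the triglyceride lipase ATGL, rose (1.23 ± 0.33, adjusted p = 0.0032), as did the carboxylesterases Ces2a (0.96 ± 0.22, adjusted p = 6.1e-04) and Ces1f (1.3 ± 0.27, adjusted p = 1.9e-04). The 3 members that fell were Plin1, the fat cell perilipin, which is also in the fat cell list (-5.04 ± 0.83, adjusted p = 4.9e-06), Cidea, a droplet fusion protein (-1.11 ± 0.29, adjusted p = 0.0020), and Mgll, the monoglyceride lipase (-0.37 ± 0.09, adjusted p = 0.0011; score-adjusted 0.1, adjusted p = 0.70). Without FAT-55 replicate 12 the log2 fold change of Plin1 was -6.19, and without FAT-20 replicates 1 and 9 it was -4.34.

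Fatty acid oxidation genes rose as a group, with 22 of 32 measured members higher and none lower, and a median log2 fold change of 0.33. With epithelial scaling 13 were higher, and 1 was in the score-adjusted fit. Acadl, the long-chain acyl-CoA dehydrogenase, measured 260, 346 and 405 CPM in FAT-55 against 143, 168 and 315 CPM in FAT-20 (0.83 ± 0.15, adjusted p = 1.9e-05). Acot1, a cytosolic acyl-CoA thioesterase, measured 18.2, 26.8 and 55.8 CPM in FAT-55 against 6.54, 13.3 and 22.1 CPM in FAT-20 (1.06 ± 0.3, adjusted p = 0.0047). In both cases the ranges overlapped. Cyp4a10, a fatty acid omega-hydroxylase, was the member that stayed called score-adjusted. It measured 33, 54.2 and 119 CPM in FAT-55 against 4.73, 9.53 and 72.6 CPM in FAT-20 (2.06 ± 0.45, adjusted p = 2.7e-04; score-adjusted 1.69, adjusted p = 0.0465). Without FAT-20 replicate 10 its log2 fold change was 2.65. Ppara, the nuclear receptor that drives many of these genes, rose by less (0.44 ± 0.17, adjusted p = 0.0484; score-adjusted -0.05, adjusted p = 0.95) and was not called without FAT-20 replicates 1 and 9 (adjusted p = 0.086). Acat1, the mitochondrial acetoacetyl-CoA thiolase of ketone metabolism, is not on that list and had the same direction. It measured 261, 288 and 335 CPM in FAT-55 against 155, 182 and 211 CPM in FAT-20, with no overlap (0.66 ± 0.07, adjusted p = 3.7e-11; score-adjusted 0.57, adjusted p = 6.5e-06). Ehhadh, the bifunctional enzyme of peroxisomes (0.66 ± 0.12, adjusted p = 1.1e-05), Slc25a20, the mitochondrial carnitine carrier (0.58 ± 0.12, adjusted p = 1.8e-04), and Bdh1, which interconverts the ketone bodies (0.31 ± 0.06, adjusted p = 6.1e-05), rose with them, and none of these 3 was called in the score-adjusted fit. Nuclear-encoded subunits of the respiratory chain rose in 23 of 45 cases by small amounts (median 0.17), with Cycs, cytochrome c, at 0.4 ± 0.09, adjusted p = 4.1e-04. Without FAT-55 replicate 2 the number higher was 15. Only 1 of them was higher with epithelial scaling, and none was in the score-adjusted fit.

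Fatty acid synthesis genes fell more often than they rose. Of 20 members 10 fell and 3 rose (median -0.24), against 0 and 1 in the score-adjusted fit. The number that rose was 1 without FAT-55 replicate 2 and at most 4 with other single libraries left out. Fasn, the fatty acid synthase, measured 38.5, 42.7 and 58.2 CPM in FAT-55 against 53.3, 79.5 and 262 CPM in FAT-20. The ranges met at their edges (-1.11 ± 0.17, adjusted p = 9.8e-07). Scd1, the desaturase that makes oleate, measured 8.82, 19.2 and 38.6 CPM in FAT-55 against 40.1, 145 and 929.5 CPM in FAT-20, with no overlap (-3.67 ± 0.55, adjusted p = 9.0e-07). In the score-adjusted fit neither was called (Fasn -0.44, adjusted p = 0.36; Scd1 -0.07, adjusted p = 0.97). Fat cells also express both genes, and the part of fat cells in the falls of this list was not tested. Without FAT-20 replicates 1 and 9 the changes were -0.75 for Fasn and -2.94 for Scd1. Thrsp, a lipogenic regulator also abundant in fat cells, was 3.77-fold lower (-1.92 ± 0.29, adjusted p = 1.4e-06; score-adjusted -0.24, adjusted p = 0.79), or -1.31 without the same 2 libraries. Acaca, the carboxylase of the first step, fell less (-0.65 ± 0.11, adjusted p = 4.1e-06). Me1, the malic enzyme that supplies reducing power for synthesis, went against the rest. It measured 90.2, 128 and 187 CPM in FAT-55 against 24.8, 38.7 and 75.4 CPM in FAT-20. Those groups did not overlap, and the difference held in the score-adjusted fit (1.69 ± 0.24, adjusted p = 2.9e-07; score-adjusted 1.54, adjusted p = 8.3e-04). Srebf1, the transcription factor of fatty acid synthesis genes, also rose (0.58 ± 0.19, adjusted p = 0.014; score-adjusted 0.07, adjusted p = 0.93), a call lost without FAT-20 replicates 1 and 9 (adjusted p = 0.0539).

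Cholesterol synthesis and uptake genes fell at early and late steps of the pathway. Of 25 genes 17 fell and 2 rose (15 and 1 without FAT-20 replicates 1 and 9), with a median log2 fold change of -0.43. With epithelial scaling 20 fell. In the score-adjusted fit the median was -0.38 and 2 genes were called, among them Dhcr7, of a late step (-0.3 ± 0.07, adjusted p = 3.3e-04; score-adjusted -0.4, adjusted p = 0.011). Early in the pathway Hmgcs1, which makes HMG-CoA, measured 57.9, 75.2 and 121 CPM in FAT-55 against 65.8, 106 and 179 CPM in FAT-20 (-0.55 ± 0.15, adjusted p = 0.0042). Mvk, mevalonate kinase, measured 9.22, 11.7 and 14.9 CPM in FAT-55 against 12.9, 16.2 and 36.9 CPM in FAT-20 (-0.68 ± 0.12, adjusted p = 2.1e-05). Sqle, squalene epoxidase, fell further (-1.03 ± 0.2, adjusted p = 4.8e-05), and Lss, which closes the rings of lanosterol, measured 11, 16.1 and 24.2 CPM in FAT-55 against 18, 26 and 42.8 CPM in FAT-20 (-0.7 ± 0.13, adjusted p = 3.2e-05). Fdps, which makes farnesyl diphosphate, fell as well (-1.19 ± 0.23, adjusted p = 4.0e-05), although its processed pseudogenes make its count uncertain. The members that rose were Ggps1, a prenyltransferase at a branch of the pathway (0.18 ± 0.06, adjusted p = 0.013; adjusted p = 0.057 without FAT-20 replicates 1 and 9), and Insig1, the membrane protein that holds SREBP back (0.65 ± 0.15, adjusted p = 4.6e-04).

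Promoters are shown for 3 of the members that fell. Of the 25 list genes, 17 had promoters in a RefSeq table on GRCm38.p6 that runs from 250 bases before to 50 bases after each gene's start. Capitals mark CCAAT, the NF-Y motif, on either strand (ATTGG on the other), or TCACNCCAC, an SRE-like motif, on either strand. Promoters are given for Mvk (chr5:114444019-114444318, plus strand), Hmgcs1 (chr13:119690101-119690400, plus strand) and Lss (chr10:76531355-76531654, plus strand).
Mvk: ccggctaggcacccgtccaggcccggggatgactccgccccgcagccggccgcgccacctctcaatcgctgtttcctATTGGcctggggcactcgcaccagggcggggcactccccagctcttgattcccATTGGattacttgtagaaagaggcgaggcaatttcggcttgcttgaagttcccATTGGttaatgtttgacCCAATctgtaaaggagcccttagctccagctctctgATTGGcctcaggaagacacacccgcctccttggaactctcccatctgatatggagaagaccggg
Hmgcs1: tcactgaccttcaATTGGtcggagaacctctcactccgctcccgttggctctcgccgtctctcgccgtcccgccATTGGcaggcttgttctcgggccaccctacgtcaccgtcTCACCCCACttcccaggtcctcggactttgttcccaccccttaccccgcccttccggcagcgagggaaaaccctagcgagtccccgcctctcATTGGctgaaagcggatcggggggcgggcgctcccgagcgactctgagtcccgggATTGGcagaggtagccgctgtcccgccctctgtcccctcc
Lss: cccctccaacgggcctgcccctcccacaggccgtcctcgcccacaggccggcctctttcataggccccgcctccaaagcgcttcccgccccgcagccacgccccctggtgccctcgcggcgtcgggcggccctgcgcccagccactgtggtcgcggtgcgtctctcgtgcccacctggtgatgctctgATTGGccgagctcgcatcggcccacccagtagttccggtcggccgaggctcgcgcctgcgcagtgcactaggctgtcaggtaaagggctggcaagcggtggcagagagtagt
Mvk held 5 CCAAT matches, Hmgcs1 held 4 and 1 TCACNCCAC match, and Lss held 1 CCAAT match. CCAAT stood in 17 of the 20 promoters of the list (85%), against 12289 of all 32851 promoters in the table (37.4%), and 10 of the 20 (50%) held it at least 2 times, against 11.7% of all promoters. Of the 14 promoters of members that fell 11 held CCAAT (78.6%), as did all 6 promoters of members that rose or were not called. Counted by gene, all 11 members that fell and had a promoter, and all 17 of the list, held CCAAT in at least 1 promoter. TCACNCCAC stood in 1 of the 20 (5.0%), against 1.2% of all. The share with CCAAT was 68.2% among promoters of the fatty acid synthesis list, 42.3% for fatty acid oxidation and 50% for sugar genes. A match describes the letters in the window and is not evidence of binding.

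Genes of sugar digestion and uptake fell in 7 of 20 cases and rose in 2 with a median log2 fold change of -0.12. The score-adjusted fit called 6 lower and 0 higher, with a median of -0.31, against -0.12 without the scores. Mgam, the maltase-glucoamylase that ends starch digestion, measured 1496, 2861 and 3503 CPM in FAT-55 against 3637, 5048 and 7117 CPM in FAT-20. No library overlapped (-0.9 ± 0.15, adjusted p = 7.9e-06; score-adjusted -1.17, adjusted p = 0.0014). Slc5a1, the sodium-glucose cotransporter, measured 1455, 2563 and 3253 CPM in FAT-55 against 3084, 4668 and 5534 CPM in FAT-20 (-0.8 ± 0.16, adjusted p = 6.9e-05; score-adjusted -1.06, adjusted p = 0.0047). Sis, sucrase-isomaltase, measured 3795, 5098 and 6391 CPM in FAT-55 against 6114, 7762 and 12440 CPM in FAT-20 (-0.64 ± 0.13, adjusted p = 1.1e-04; score-adjusted -0.78, adjusted p = 0.013). For Slc5a1 and Sis the highest FAT-55 libraries reached into the FAT-20 range. Slc2a2, the basolateral sugar transporter GLUT2 (-0.64 ± 0.19, adjusted p = 0.0072; score-adjusted -1.16, adjusted p = 0.0075), and Fbp1, a gluconeogenic phosphatase (-0.48 ± 0.15, adjusted p = 0.014; score-adjusted -0.91, adjusted p = 0.0059), fell likewise. Amy1, an amylase gene, fell with no overlap (-2.3 ± 0.33, adjusted p = 3.9e-07; score-adjusted -0.31, adjusted p = 0.71). Treh, which splits trehalose, rose (0.82 ± 0.15, adjusted p = 3.3e-05; score-adjusted 0.41, adjusted p = 0.27), as did Slc5a4b, a relative of Slc5a1 (0.44 ± 0.14, adjusted p = 0.011).

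Protein digestion and amino acid uptake genes moved in both directions. Of 23 genes 6 rose and 4 fell (median 0.07; score-adjusted 1 higher and none lower). The share that rose was above the 14.2% of all genes, and the share that fell was near the 16.6%. Slc6a20b, which is annotated as an amino acid transporter of the imino acid family, measured 8.51, 13.6 and 19.1 CPM in FAT-55 against 0.952, 2.58 and 7.31 CPM in FAT-20. The groups did not overlap (2.21 ± 0.29, adjusted p = 7.1e-08; score-adjusted 1.56, adjusted p = 0.0065), and its neighbour Slc6a20a, whose sequence is similar, rose by less (0.74 ± 0.15, adjusted p = 1.4e-04). Tmprss15, the enteropeptidase that activates trypsin, rose (2.32 ± 0.91, adjusted p = 0.043; score-adjusted 0.56, adjusted p = 0.86; adjusted p = 0.094 without FAT-20 replicates 1 and 9), and Xpnpep2, a brush border peptidase for proline-containing peptides, fell (-1.27 ± 0.22, adjusted p = 9.1e-06; score-adjusted -0.7, adjusted p = 0.17). Without FAT-20 replicate 10 the log2 fold change of Tmprss15 was 3.3. Slc15a1, the peptide transporter PEPT1, differed by -0.14 on the log2 scale and was not called (adjusted p = 0.44).

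Among retinoid genes 3 of 15 rose and 2 fell, and 5 rose without FAT-20 replicate 10. Aldh1a1, a retinal dehydrogenase, measured 931, 1302 and 2003 CPM in FAT-55 against 231, 458 and 898 CPM in FAT-20, with no overlap (1.46 ± 0.24, adjusted p = 3.5e-06; score-adjusted 0.61, adjusted p = 0.29). Rbp2, the retinol binding protein of enterocytes, rose (1.06 ± 0.17, adjusted p = 3.1e-06; score-adjusted 0.71, adjusted p = 0.0529). Bco1, which cleaves beta-carotene to retinal, measured 3.1, 14.7 and 52.5 CPM in FAT-55 against 6.34, 41.4 and 317 CPM in FAT-20 and fell in both fits (-2.1 ± 0.51, adjusted p = 9.4e-04; score-adjusted -3.48, adjusted p = 9.8e-04). Of 9 iron genes 4 rose and none fell (1 fell without FAT-20 replicates 1 and 9). Slc46a1, a folate and heme transporter, measured 181, 237 and 306 CPM in FAT-55 against 11.8, 57.9 and 167 CPM in FAT-20, without overlap (1.65 ± 0.28, adjusted p = 8.2e-06; score-adjusted 1.07, adjusted p = 0.037). The ferritin chain genes Fth1 (0.49 ± 0.14, adjusted p = 0.0056) and Ftl1 (0.27 ± 0.09, adjusted p = 0.014) rose slightly. Slc40a1, the iron exporter, passed the threshold narrowly (0.36 ± 0.12, adjusted p = 0.019), and with some single libraries left out it did not (adjusted p up to 0.056).

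Xenobiotic and glutathione genes had 18 of 29 members higher and none lower, with a median log2 fold change of 0.56. In the score-adjusted fit the median was 0.08 and 1 member was called. That member was Ces2c, a carboxylesterase, at 643, 739 and 908 CPM in FAT-55 against 224, 356 and 588 CPM in FAT-20 (1.0 ± 0.14, adjusted p = 2.2e-07; score-adjusted 0.69, adjusted p = 0.018). Gsta3, a glutathione transferase, measured 21.9, 30.7 and 52.6 CPM in FAT-55 against 5.32, 14.8 and 20.1 CPM in FAT-20 (1.27 ± 0.27, adjusted p = 2.3e-04; score-adjusted 0.51, adjusted p = 0.55). Neither gene overlapped between the groups. Ugt1a7c, a glucuronosyltransferase (1.04 ± 0.17, adjusted p = 3.7e-06), Gclm, a subunit of the enzyme that starts glutathione synthesis (0.63 ± 0.11, adjusted p = 9.7e-06), and Cyp2d26, a cytochrome P450 (0.73 ± 0.14, adjusted p = 3.2e-05), rose, and none was called in the score-adjusted fit. Gsta2 rose most in the list (2.06 ± 0.41, adjusted p = 9.9e-05; score-adjusted 0.57, adjusted p = 0.61), though Gsta1 and Gsta2 are near copies and their reads may be split.

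Antibacterial lectins of the Reg3 family differed between the diets and spread widely within FAT-20. Reg3g measured 25.7, 34.8 and 133 CPM in FAT-55 against 103, 450 and 2276 CPM in FAT-20, where 1 FAT-55 library reached into the FAT-20 range (-3.86 ± 0.57, adjusted p = 7.9e-07; score-adjusted -3.49, adjusted p = 0.011). Reg3b measured 72, 124 and 497 CPM in FAT-55 against 267, 1704 and 4817 CPM in FAT-20 (-3.54 ± 0.53, adjusted p = 9.4e-07; score-adjusted -3.59, adjusted p = 0.0041). Both lectins thus fell with and without the marker scores. Their relative Reg3a rose (1.22 ± 0.22, adjusted p = 1.7e-05; score-adjusted 0.81, adjusted p = 0.072), and the other 3 measured members of the family were not called. Genes of IgA transport and epithelial defence fell in 8 of 16 cases and rose in none (median -0.67; score-adjusted 2 lower). Among the 8 were the antibody genes Igha and Jchain. Nos2, the inducible nitric oxide synthase, measured 0.358, 0.617 and 0.949 CPM in FAT-55 against 1.22, 8.67 and 98.5 CPM in FAT-20. The FAT-55 libraries stayed under 1 CPM and did not overlap FAT-20, whose own libraries differed widely (-5.0 ± 0.78, adjusted p = 2.0e-06; score-adjusted -3.51, adjusted p = 0.025). Duox2, an epithelial oxidase that makes hydrogen peroxide (-1.56 ± 0.56, adjusted p = 0.028; score-adjusted 0.23, adjusted p = 0.92; adjusted p = 0.077 without FAT-20 replicates 1 and 9), and Saa1, a serum amyloid protein (-4.66 ± 1.27, adjusted p = 0.0035; score-adjusted -3.67, adjusted p = 0.27), fell. Saa1 was -3.81 without FAT-20 replicates 1 and 9 and -3.77 without replicate 9 alone. Igha and Jchain, the heavy chain and joining chain of IgA, fell (log2 fold changes -0.76 and -0.79, adjusted p = 0.0021 and 0.0040), and neither was called in the score-adjusted fit.

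Paneth cell genes fell in 18 of 21 measured cases and rose in 1, Mptx1 (0.93 ± 0.26, adjusted p = 0.0041), with a median log2 fold change of -1.22 (score-adjusted 4 lower and 0 higher, median -0.81). The summed level of the list was 4910, 7170 and 12100 CPM in the lowest, median and highest FAT-55 library, against 1880, 16500 and 26400 CPM in FAT-20, so FAT-20 held both the lowest and the highest library. The lowest was replicate 10. Mptx2, a pentraxin of Paneth cells, measured 4.4, 7.42 and 45.6 CPM in FAT-55 against 12.9, 112 and 326 CPM in FAT-20 (-3.25 ± 0.46, adjusted p = 3.0e-07; score-adjusted -2.98, adjusted p = 0.0055). Defa22 measured 9.79, 15.7 and 75.9 CPM in FAT-55 against 10.2, 603 and 1421 CPM in FAT-20. In 9 FAT-20 libraries it stood at 312 CPM or more, and in replicates 10, 3 and 7 at 10.2, 56.0 and 91.7 CPM, within or near the FAT-55 range (-4.67 ± 0.74, adjusted p = 2.5e-06; score-adjusted -3.42, adjusted p = 0.0501). Defa35 (-4.94 ± 0.75, adjusted p = 1.2e-06; score-adjusted -3.7, adjusted p = 0.024), Defa20 (-4.68 ± 0.73, adjusted p = 1.8e-06; score-adjusted -3.3, adjusted p = 0.0516) and Defa29 (-3.39 ± 0.51, adjusted p = 1.2e-06; score-adjusted -2.43, adjusted p = 0.040), further alpha-defensins, fell as well. Lyz1, the Paneth lysozyme, fell by less (-0.81 ± 0.26, adjusted p = 0.014; score-adjusted -0.39, adjusted p = 0.65). Alpha-defensin genes are near copies of one another, and the values of single members are uncertain. Goblet cell and mucus genes fell in 6 of 16 cases and rose in none (median -0.24; score-adjusted none called). Among them Muc2, the main secreted mucin, fell (-0.53 ± 0.13, adjusted p = 0.0010), as did Spdef, a transcription factor of goblet cells (-0.48 ± 0.12, adjusted p = 0.0013), and Guca2a, the hormone guanylin (-1.78 ± 0.28, adjusted p = 2.1e-06).

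**Figure D4:**
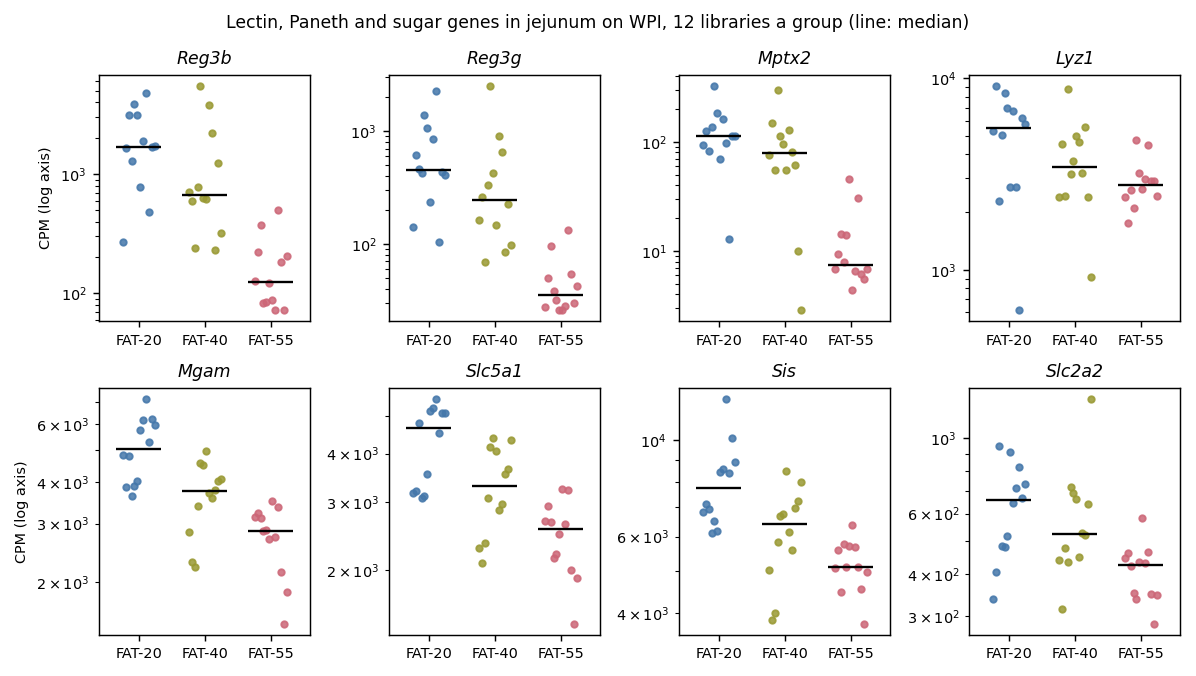
CPM on a log axis for defence and sugar genes in each WPI library by fat level, with 1 point per mouse and a bar at the group median. Reg3g and Reg3b spread widely in FAT-20, with medians of 450 and 1704 CPM, while for Mgam every FAT-55 library lies below every FAT-20 library.

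Gut hormone genes of the enteroendocrine cells rose in 8 of 22 cases and fell in 3 (median 0.02; score-adjusted none called), and 5 rose without FAT-20 replicate 9. Gip, the incretin of the upper gut, measured 80.9, 96.6 and 123 CPM in FAT-55 against 43.8, 62 and 92 CPM in FAT-20 (0.62 ± 0.11, adjusted p = 1.0e-05). Cck, cholecystokinin, released on fat, measured 16.1, 18.7 and 27.3 CPM in FAT-55 against 7.67, 10.6 and 22.8 CPM in FAT-20 (0.69 ± 0.17, adjusted p = 0.0011). Pyy, peptide YY, a hormone more typical of the lower gut, fell (-1.56 ± 0.42, adjusted p = 0.0031; score-adjusted -0.05, adjusted p = 0.98; -0.94, adjusted p = 0.076 without FAT-20 replicates 1 and 9). Chga, a granule protein common to these cells, rose slightly (0.31 ± 0.08, adjusted p = 0.0018), and Gcg, the gene of GLP-1, differed by -0.01 and was not called.

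Of 9 ileal bile acid genes 4 fell and 1 rose, and without FAT-20 replicates 1 and 9 1 fell and 1 rose. Fabp6, the ileal bile acid binding protein, measured 0, 0.0729 and 0.174 CPM in FAT-55 against 0, 0.521 and 282 CPM in FAT-20, with 177 and 282 CPM in replicates 1 and 9. Its log2 fold change was -8.85 ± 1.13, adjusted p = 4.7e-08, or -3.07 without those 2 libraries and -7.65 without replicate 9 alone. Slc10a2, the ileal bile acid transporter, had a log2 fold change of -3.29, which lost its call without both libraries (-0.83, adjusted p = 0.16) and was -1.33 without replicate 9. Nr0b2, the corepressor SHP, was the member that rose (1.81 ± 0.47, adjusted p = 0.0022; score-adjusted 1.94, adjusted p = 0.041). Without the 2 libraries 4317 of the 5231 calls were kept in the same direction.

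Immune cell genes differed by list. MHC class II genes fell in 7 of 8 cases (median -0.57; score-adjusted none), for example H2-Ab1 (-0.57 ± 0.18, adjusted p = 0.014), an antigen-presenting chain that villus epithelium can also make, and Ciita, the activator of the class (-0.57 ± 0.19, adjusted p = 0.019). With the B and plasma cell score as a covariate neither was called (H2-Ab1 -0.44, adjusted p = 0.068; Ciita -0.34, adjusted p = 0.13). B and plasma cell genes fell in 5 of 19 cases, above the 16.6% of all genes, with a median of -1.03 (score-adjusted 1). That count ran from 3 to 10 with 1 library left out, the highest without FAT-20 replicate 10, and was 10 with epithelial scaling. Derl3, a protein of the secretory load of plasma cells, was at -0.85 ± 0.19, adjusted p = 3.4e-04 (score-adjusted -1.04, adjusted p = 0.014). None of 21 T cell genes was called (1 lower without FAT-20 replicate 9, for example), and 1 of 19 macrophage genes was higher. Without FAT-20 replicates 1 and 9 the macrophage list had none higher and 1 lower, and without FAT-20 replicate 10 it had 2 lower. The B and plasma cell score ran from 0.45 to 1.35 in FAT-55 (median 0.86) and from 0.85 to 3.43 in FAT-20 (median 1.70), and its part in the fall of the antibody genes was not tested. Interferon response genes had 4 higher and 1 lower of 40 (2 and 1 without FAT-20 replicates 1 and 9). Both shares were under those of all genes, 14.2% higher and 16.6% lower. Among the 4 was Psmb8, an immunoproteasome subunit (0.46 ± 0.14, adjusted p = 0.010; adjusted p = 0.0524 without FAT-20 replicates 1 and 9). Another was Irf1, an interferon-induced transcription factor (0.44 ± 0.12, adjusted p = 0.0028; score-adjusted 0.33, adjusted p = 0.31). The 5 measured red blood cell genes all fell, with Hbb-bs at -1.08 ± 0.23, adjusted p = 2.4e-04 and Hba-a1, one of a pair of near-identical genes, at -1.09 ± 0.23, adjusted p = 1.5e-04, and the 4 globin genes stayed called in the score-adjusted fit (Hbb-bs -1.32, adjusted p = 0.022). The summed red cell level was 13.2, 16.5 and 27.6 CPM in FAT-55 against 15.4, 41.3 and 60.6 CPM in FAT-20.

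Few genes of cell renewal were called. Of 28 cell cycle genes 1 rose, Pcna, the replication clamp (0.32 ± 0.06, adjusted p = 9.0e-05), and of 15 stem cell and Wnt genes 2 fell, while Lgr5, the crypt stem cell receptor, differed by -0.13 and was not called (adjusted p = 0.56). Endoplasmic reticulum chaperones fell in 10 of 20 cases and rose in 1 (median -0.21; score-adjusted none), with Hspa5, the chaperone BiP, at -0.37 ± 0.13, adjusted p = 0.024 and P4hb, the subunit shared by MTP and prolyl hydroxylase, the member that rose (0.35 ± 0.08, adjusted p = 9.3e-04). Amino acid response genes fell in 7 of 27 and rose in 2, glucocorticoid-induced genes fell in 2 of 13, immediate early genes rose in 2 and fell in 1 of 18, and clock genes rose in 2 of 18. Jun, an immediate early transcription factor (0.69 ± 0.14, adjusted p = 1.1e-04), and Nfil3, a repressor of the clock network (0.82 ± 0.26, adjusted p = 0.012), rose, while Nr4a1, an orphan nuclear receptor (-0.8 ± 0.27, adjusted p = 0.017), and Mt1, a metallothionein (-0.68 ± 0.22, adjusted p = 0.015), fell, and none of the 4 was called in the score-adjusted fit. The chaperone and amino acid response lists had larger shares lower than the 16.6% of all genes, and the other lists named here had smaller ones. Without FAT-20 replicate 1 the amino acid list had 4 higher, without FAT-55 replicate 2 the clock list had 1 higher, and with 1 library left out the stem cell list had 1 to 2 lower and the glucocorticoid list 1 to 3. Of 16 epithelial genes 3 rose, among them Alpi, the brush border alkaline phosphatase (0.9 ± 0.15, adjusted p = 4.8e-06), and Gata4, a transcription factor of the proximal gut (0.37 ± 0.08, adjusted p = 2.1e-04), and 2 fell (4 and 0 without FAT-20 replicates 1 and 9, 5 and 0 without replicate 1 alone), and the median was 0.06. Of 2 measured pancreatic acinar genes 1, Cela1, was called (0.29 ± 0.1, adjusted p = 0.016), and Amy2a5, Amy2b, Prss1 and Ptf1a had no read in either group.

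Among genes with a mean of at least 1 CPM, the largest rise outside antibody genes was at the microRNA gene Mir194-1, on chromosome 1, one copy of miR-194, a microRNA of intestinal epithelium. The hairpin gene measured 1.37, 2.99 and 5.37 CPM in FAT-55 against 0.0898, 0.39 and 1.04 CPM in FAT-20, and no library overlapped. The log2 fold change was 2.82 ± 0.28, adjusted p = 2.6e-11, and it was 3.02, adjusted p = 3.1e-07 in the score-adjusted fit. The mature strand encoded there, from RefSeq on GRCm38.p6 (chr1:185313325-185313346, plus strand), is printed 5′ to 3′ with its seed, bases 2 to 8, in capitals.
mmu-miR-194-5p: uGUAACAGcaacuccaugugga
These are total RNA libraries without a small RNA selection in the labels, so the reads may come from the longer transcript around the hairpin, and the level of the mature microRNA was not measured. The other genes with the largest rises included the long RNA 4930528H21Rik (2.38 ± 0.34, adjusted p = 5.2e-07) and H2-Q10, a secreted class I protein (2.18 ± 0.4, adjusted p = 2.2e-05), both called in the score-adjusted fit. Gm6831 (2.25 ± 0.39, adjusted p = 1.0e-05) was not called there (score-adjusted 1.15, adjusted p = 0.25). The antibody segments Igkv12-38, Ighv3-1 and Igkv3-7, whose near copies make their counts uncertain, rose most in a few FAT-55 libraries, with maxima of 17.6, 38 and 27.7 CPM in FAT-55 against 0.47, 1.63 and 2.15 CPM in FAT-20. Their log2 fold changes of 3.8, 3.53 and 2.67 became 3.06 without FAT-55 replicate 12, 2.72 (no longer called, adjusted p = 0.0586) without replicate 8 and 1.96 without replicate 8. In the score-adjusted fit Igkv12-38 and Igkv3-7 were called and Ighv3-1 turned in sign (-1.23, adjusted p = 0.80). The segment Igkv5-37 had -5.51, or -6.53 without FAT-55 replicate 10.

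The deepest fall among the same genes was that of Plb1, a phospholipase of the brush border. It measured 0.18, 0.406 and 0.921 CPM in FAT-55 against 0.764, 28 and 1240 CPM in FAT-20, with 1220 and 1240 CPM in FAT-20 replicates 1 and 9. The log2 fold change of -9.04 ± 1.29, adjusted p = 4.5e-07 was -6.54 without both and -8.37 without replicate 9. Cfd, the fat cell protease adipsin, measured 0, 0.0226 and 1.75 CPM in FAT-55 against 2.07, 13.9 and 89.7 CPM in FAT-20 (-6.66 ± 0.97, adjusted p = 5.5e-07; score-adjusted -1.76, adjusted p = 0.013). Like Fabp4, Cfd is part of the fat cell score, which partly sets its score-adjusted value. Without FAT-55 replicate 12, the highest of that group, Cfd stood at -7.82 and Retn, the fat cell hormone resistin, at -6.25, against -5.0 with it. Without FAT-20 replicates 1 and 9 the values were -5.96 for Cfd and -4.26 for Retn.

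Besides Mir194-1 and Acat1, the smallest adjusted p-values of the score-adjusted fit belonged to 6 genes outside the lists. Igf2bp2, an RNA-binding protein of growth factor transcripts, measured 19.4, 22.1 and 29.7 CPM in FAT-55 against 32.9, 42.9 and 47.6 CPM in FAT-20. This was the smallest adjusted p of the named genes, and the groups were apart (-0.84 ± 0.08, adjusted p = 9.6e-13; score-adjusted -0.73, adjusted p = 6.5e-06). Pmm1, a phosphomannomutase, measured 23.1, 29.9 and 43.8 CPM in FAT-55 against 8.57, 10.7 and 15.9 CPM in FAT-20, again apart (1.55 ± 0.18, adjusted p = 7.2e-09; score-adjusted 1.38, adjusted p = 5.8e-05). Pbx4, a homeobox factor, measured 0.266, 0.70 and 1.3 CPM in FAT-55 against 1.32, 3.83 and 6.7 CPM in FAT-20 (-2.38 ± 0.24, adjusted p = 3.7e-11; score-adjusted -1.92, adjusted p = 3.0e-04). The lowest FAT-20 library of Pbx4 stood just above the highest FAT-55 library. The unnamed transcript 1190002N15Rik (1.77 ± 0.19, adjusted p = 5.1e-10) and Klhdc3, a kelch-repeat protein (0.55 ± 0.07, adjusted p = 1.1e-08), rose, and Kctd14 fell (-0.88 ± 0.13, adjusted p = 9.4e-07), all 3 with overlapping ranges and all called in the score-adjusted fit.

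**Figure D5:**
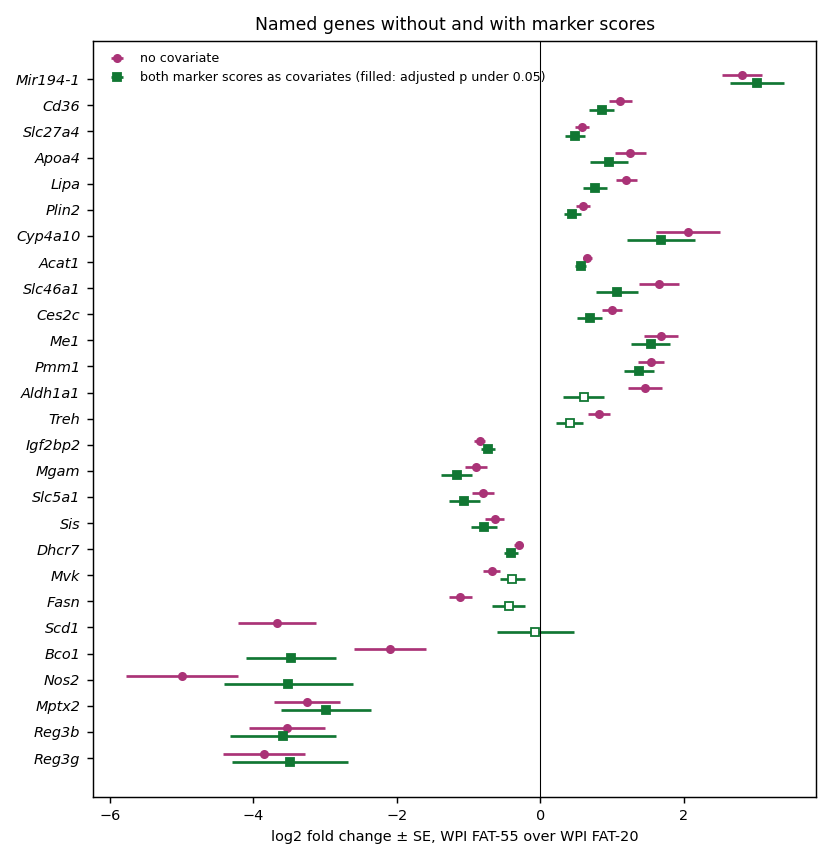
Log2 fold change of FAT-55 over FAT-20 (x axis, with SE bars) for 27 named genes, without covariates (circles) and with both marker scores as covariates (squares, filled where the adjusted p was under 0.05). The values of Reg3b, Mir194-1 and Me1 lie close together, while Scd1 (-3.67 without and -0.07 with the scores) and Fasn lie nearer 0 with them.

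The step between FAT-55 and FAT-40 was small beside that between FAT-55 and FAT-20. FAT-55 against FAT-40 gave 42 genes higher (0.247%) and 69 lower (0.406%), while FAT-40 against FAT-20 gave 2163 higher (12.7%) and 2215 lower (13.0%). By DESeq2 the counts of FAT-55 against FAT-40 were 72 and 126, and on reads summed by identifier stem both were 0. These comparisons share libraries with the main one, so their values are set side by side and not counted as separate evidence. Of the genes called between FAT-55 and FAT-40, 95 were also called between FAT-55 and FAT-20. The fat cell score ran from 0.09 to 4.0 in FAT-40 libraries (median 0.76), much as in FAT-55. Genes of fat handling differed in where FAT-40 lay. Cd36 had medians of 136, 217 and 326 CPM along the order FAT-20, FAT-40, FAT-55, and Apoa4 of 1302, 2935 and 3284 CPM, with FAT-55 over FAT-40 at 0.47 and 0.24 and neither called. Npc1l1 had medians of 1140, 1221 and 848 CPM in that order, Apob of 4138, 6430 and 6103 CPM, and Scd1 of 145, 12.6 and 19.2 CPM. For these 3 genes the FAT-40 median lay outside the range of the other 2 medians. Mir194-1 had medians of 0.39, 2.68 and 2.99 CPM in the same order. Other genes differed at the upper step too. Reg3g had medians of 450, 244 and 34.8 CPM from FAT-20 to FAT-55 (FAT-55 over FAT-40 -3.35 ± 0.56, adjusted p = 7.1e-04), and Reg3b of 1704, 671 and 124 CPM (-2.99 ± 0.52, adjusted p = 0.0011). FAT-40 over FAT-20 was -0.51, adjusted p = 0.48 for Reg3g and -0.55, adjusted p = 0.41 for Reg3b. Mptx2 fell at the upper step as well (-2.83 ± 0.45, adjusted p = 4.1e-04), and 8 of 21 Paneth genes were lower in FAT-55 than in FAT-40. Me1 (0.99 ± 0.23, adjusted p = 0.025) was higher and Npc1l1 (-0.5 ± 0.09, adjusted p = 0.0017) and Igf2bp2 (-0.36 ± 0.08, adjusted p = 0.0089) were lower in FAT-55 than in FAT-40.

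On the CAS diets the same fat step gave 2447 genes higher (14.4%) and 2264 lower (13.3%), from 22 libraries that are not among the 24 above. No gene passed the threshold for a difference between the FAT-55 response on WPI and that on CAS in edgeR's quasi-likelihood test (0.00% either way). There 1016 genes had an unadjusted p under 0.05, the smallest adjusted p was 0.0957, and DESeq2 called 6. That does not show the responses to be alike, and the values differ in places. Reg3b had log2 fold changes of -3.54 on WPI and -2.17 ± 0.52 on CAS, a difference of -1.37 ± 0.7, adjusted p = 0.84, and Reg3g of -3.86 and -2.62 ± 0.56, a difference of -1.24 ± 0.74, adjusted p = 0.86. Apoa4 had 1.26 on WPI and 0.97 on CAS, and Cd36 1.12 and 1.03. Mir194-1 (2.82 on WPI and 3.15 on CAS), Igf2bp2 (-0.84 and -0.73), Me1 (1.69 and 2.0) and Slc6a20b (2.21 and 2.41) moved the same way on both proteins. Respiratory chain subunits were called higher in 23 of 45 cases on WPI and in 45 on CAS. Red blood cell genes fell in 5 of 5 cases on WPI and in 0 on CAS, and Hbb-bs differed by -1.08 on WPI and -0.36 on CAS. Smooth muscle genes fell in 15 and fat cell genes in 9 cases on WPI, and in 12 and 8 on CAS, and their part in the other values was not tested on either protein.

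Some of the smaller changes named above lay near the threshold. With epithelial scaling Acsl5, Bdh1, Cela1, Chga, Ftl1, Ggps1, Pcna, Ppara, Psmb8, Scarb1, Slc40a1, Slc5a4b and Srebf1 were not called, and none of the genes named changed sign. With reads summed over the mice of each identifier stem, 3213 of the 5231 calls were kept in the same direction. On those sums 20 of the 140 named genes were no longer called, among them Acot1 (1.08, adjusted p = 0.12), Fbp1 (-0.46, adjusted p = 0.14), Duox2 (-1.54, adjusted p = 0.11) and Gsta1 (0.97, adjusted p = 0.082). With a random effect for stem 12 of the 140 were no longer called, and with the B and plasma cell score as a covariate also 12. Leaving out 1 library at a time ended the call of Ppara in 16 of 24 cases (adjusted p up to 0.12), of Scarb1 in 16 (0.085), of Tmprss15 in 14 (0.12) and of Acsl5 in 9 (0.089). It did so in 2 cases each for Duox2 and Slc40a1 and in 1 each for Srebf1, Nfil3, Cela1 and Ighv3-1.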

How the data were processed

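RNA-seq of jejunum was analysed from the gene table of raw read counts that the authors deposited. The submitters' processing notes name cutadapt, FastQC, Trim Galore 0.61, STAR, DESeq2 1.24.0 and GRCm38, and the counting step and strand setting are not given in the sources used here. The labels' protocols give total RNA isolated with an RNeasy kit. The table held 55536 genes, and 4 rows that name no gene (23.02% of reads, 8.0% being multimapping reads) were left out, so genes with near copies lose reads. Symbols and coordinates came from GENCODE M21.

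Counts of all 70 jejunum libraries were fitted in edgeR 4.0.16 (R 4.3.3) with TMM scaling, filterByExpr (minimum count 10, minimum total 15) and 1 coefficient per diet. The quasi-likelihood F-test gave log2 fold changes of FAT-55 over FAT-20, with SE as the fold change divided by the root of F. Benjamini-Hochberg adjusted p-values over 16992 genes were called under 0.05. CPM values are TMM-scaled. The members, the 39 gene lists and the alternatives were chosen with earlier results of these data known, so lists are described by counts and medians and not tested. The rule for named genes took 8 genes of largest change in each direction with a mean of at least 1 CPM, up to 4 members per list by adjusted p, 4 marker genes and 8 genes called with both marker scores, 172 in all, of which some are not reported here. Acaca, Acot1, Acsl5, Adipoq, Amy2a5, Amy2b, Apoc2, Ces2a, Cidea, Ciita, Cyp4a10, Defa22, Dhcr7, Duox2, Fabp1, Fbp1, G0s2, Gcg, Ggps1, Gpam, Gsta1, Gsta2, Gsta3, H2-Ab1, Hmgcs1, Hspa5, Insig1, Lgr5, Lyz1, Mgll, Mptx1, Mttp, Plin3, Ppara, Prss1, Ptf1a, Pyy, Scarb1, Sis, Slc15a1, Slc2a2, Slc5a4b, Sqle, Srebf1 and Tmprss15 lie outside the rule and were chosen after their values were seen. On simulated counts with 50 genes changed per fold, 42% were recovered at 1.25-fold, 78% at 1.5-fold, 96% at 2-fold and 100% at 4-fold, with 2.47% of calls false. The simulation changed 200 of 16880 genes and drew each library independently. It held no variation common to a stem and no shift in tissue, so these rates may not hold for the data. Alternatives were DESeq2 1.42.0, RLE scaling, no filter, fewer groups, sums or random effects by identifier stem, quality weights (limma 3.58.1), marker scores as covariates, epithelial scaling and libraries left out.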

Additional observations from a re-analysis of the deposited data

How the results depend on the processing

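No paired analysis was possible because each mouse ate 1 diet and replicate numbers only follow accession order. The counts of genes higher and lower in FAT-55 than in FAT-20 (2416 and 2815) stayed within 1.5-fold with DESeq2, RLE scaling, no filter, only the groups compared, a random effect for identifier stem, quality weights, the B cell score and replicates 1 and 9 of FAT-20 left out. Leaving out single libraries gave 1920 to 2625 higher and 2610 to 3312 lower. Sums by stem gave 1673 and 1738, the fat cell score 330 and 226, the smooth muscle score 246 and 225, both scores 198 and 129, and epithelial scaling, which was chosen after seeing the data, 973 and 5004. The cause of these moves was not tested, and the stem sums also have fewer samples. For the difference between WPI and CAS DESeq2 called 6 genes, and leaving out single libraries gave 0 to 1.

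For FAT-55 against FAT-40 (42 and 69), alternatives added after seeing the data gave 72 and 126 with DESeq2, 16 and 33 without a filter, 120 and 202 with only the groups compared, 0 and 0 on stem sums, 20 and 9 with the random effect, 251 and 218 with quality weights, 21 and 40 with the B cell score and 24 and 45 with epithelial scaling.

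Of 140 named genes, 137 were called without the scores. With both scores 44 of the 140 kept direction and side of the threshold, 90 kept direction only and 6 changed sign. The 44 include 8 genes named because they were called with both scores, so their share does not describe all genes. Over all genes, 312 of the 5231 calls were kept in the same direction. DESeq2 and RLE scaling changed none of the 140. Signs turned with the smooth muscle score for Duox2 (0.56), Pyy (0.15), Slc10a2 (0.14) and Scarb1 (-0.075), with the fat cell score for Mgll (0.083), Ppara (-0.0086) and Scarb1 (-0.073), and with both scores for Duox2 (0.23), Gsta1 (-0.15), Ighv3-1 (-1.23), Mgll (0.10), Ppara (-0.047) and Scarb1 (-0.26), and none of these was called. Small changes can be missed at this number of mice, as some were in the simulated counts.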
